A study of Mus musculus with 670 samples.

Results

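The genes described are 10 heat shock proteins and co-chaperones, taken by symbol from the 55604 gene rows of the count table. They are Hspa1a, Hspa1b, Dnajb1, Hsph1, Hspb1, Bag3 and Hsp90aa1, which are known as stress-induced genes and are called the induced members, and Hspa8, Hsp90ab1 and Hspd1, which most cells express without stress and which are called the constitutive members. The division follows textbook roles and not the values in these files. The cells were skeletal stem cells of mouse long bones, freshly purified by flow cytometry after mechanical and enzymatic digestion of the bone, with no culture and no treatment. Each was sequenced in its own well with SmartSeq2, a full-length RNA method without molecular identifiers. The groups were male mice of postnatal day 3 (plate 9), 2 months (plates 1, 3 and 4) and 24 months (plates 2, 5 and 12), and the question is how the heat shock genes differ between these ages, plates and cells. Strain and genotype are not in the labels, and how many animals each age came from is not known. Each age was therefore treated as 1 sample, no test across samples was made, and the spread between plates is a description.

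Heat shock proteins are molecular chaperones, which bind unfolded or newly made proteins and help them fold, refold or reach degradation. In unstressed cells HSP70 and HSP90 proteins hold the transcription factor HSF1 inactive; when unfolded proteins take up the chaperones, HSF1 trimers bind heat shock elements, inverted repeats of the unit GAA, and transcription of the induced genes rises within minutes. Co-chaperones steer the cycle: J proteins such as Dnajb1 hand clients to HSP70 and start its ATP hydrolysis, and nucleotide exchange factors such as Hsph1 and Bag3 release them again. In the growing skeleton chaperone work is best known from cartilage and bone cells that secrete large amounts of collagen.

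The promoters were searched for the repeated unit of the heat shock element. RefSeq promoter windows on GRCm38.p6, each of 250 bases before and 50 bases after a transcription start, were found for 7 of the 10 members. Hsp90aa1, Hspa8 and Hsp90ab1 had no window in the table used here. The inverted pair GAANNTTC or TTCNNGAA, each of which reads the same on both strands, stood in 6 of the 7 members, against 15.1% of all 32851 windows. The exception was Dnajb1, with no match in either of its 2 windows. A run of 3 units in turn, each NN apart (GAA, TTC and GAA, or TTC, GAA and TTC, which are the same run on the 2 strands), overlaps the pair by construction and stood in 2 of the 7 members, Hsph1 and Hspd1, against 0.603% of all windows. These matches describe letters and were not tested as binding sites. The stretches below end at the base before the start for Hspa1a, Hspa1b and Hspb1 (150 bases each) and give 30 bases for Hspd1. They are shown because they hold the pairs, in capitals, and because the first 2 are near copies.
Hspa1a: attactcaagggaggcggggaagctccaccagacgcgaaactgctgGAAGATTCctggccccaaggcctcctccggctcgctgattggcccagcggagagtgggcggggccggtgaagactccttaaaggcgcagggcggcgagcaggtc
Hspa1b: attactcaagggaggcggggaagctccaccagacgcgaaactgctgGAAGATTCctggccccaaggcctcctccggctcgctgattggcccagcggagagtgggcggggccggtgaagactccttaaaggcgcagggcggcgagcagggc
Hspb1: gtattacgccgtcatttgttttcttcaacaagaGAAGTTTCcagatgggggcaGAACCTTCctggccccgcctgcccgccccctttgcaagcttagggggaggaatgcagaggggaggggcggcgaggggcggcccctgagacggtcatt
Hspd1: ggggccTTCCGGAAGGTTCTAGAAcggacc
They lie at chr17:34972157-34972306 (minus strand), chr17:34959239-34959388 (minus strand), chr5:135887769-135887918 (plus strand) and chr1:55088053-55088082 (minus strand). In Hspa1a and Hspa1b the pair stood at bases 47 to 54 of the printed stretch, and a CCAAT box on the other strand, read here as ATTGG, at bases 84 to 88, that is 67 bases before the start. CCAAT on either strand stood in 37.4% of all windows. Over the printed 150 bases the promoters of Hspa1a and Hspa1b differed at 1 base, and over the 300 bases of the window at 4. In Hspb1 the pairs began at bases 34 and 54 of the stretch, and in Bag3 the only pair lay 43 bases after the start. The constitutive member Hspd1 held the longest run, overlapping pairs that began at bases 7, 12 and 17 of its stretch, upstream of the second of its 2 listed starts, so an inverted pair did not separate the induced from the constitutive members.

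The results rest on passing cells unless stated, which means 1000 or more genes, 50000 or more gene reads and a mitochondrial share below 20%. Of the 95 or 96 wells of a plate, 68 passed at postnatal day 3, 15, 70 and 69 on plates 1, 3 and 4 of 2 months and 5 on each plate of 24 months. Median gene reads per passing cell were 1100488, 677688 and 2733865, and median genes per cell 2234.5, 1744.5 and 1134. The plates carry 5 batch labels, and no batch holds both 2 months and another age, so age and batch cannot be told apart in any comparison with 2 months. Batch 3 holds postnatal day 3 and plates 2 and 12 of 24 months. The gate genes Itgav and Cd200 had reads at every age, and the blood cell markers Ptprc, Cd52, Lyz2, Hba-a1, Hbb-bs, S100a8, Cd79a and Tyrobp summed to at most 23.8 CPM (reads per 1000000 gene reads of a plate's cells) on a plate of 2 months and were all at 0 at 24 months. The cell types differed between the ages: of 8 cartilage markers all had reads at postnatal day 3 and 2 months, with a sum of 77255 CPM at postnatal day 3 and 62898 to 83532 CPM on the plates of 2 months, and at 24 months 4 were at 0, Cnmd among them, with a sum of 2858 to 11599 CPM. Of 6 marrow stroma markers 6 had reads at 24 months, with a sum of 5502 to 22986 CPM, against 0.485 to 216.2 CPM at 2 months and 504 at postnatal day 3. Values within Cnmd-negative cells are given beside the results; the part of the other markers was not tested.

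Levels are CPM of the summed reads of a plate's passing cells, and an age is the mean of its plates ± SD. In these bulk-like sums, fewer expressing cells and less RNA per cell cannot be told apart, and the shares of cells follow further on. Hspa1a (chr17:34969190-34972156), the main stress-inducible HSP70, stood at 28.6 CPM on the plate of postnatal day 3. On the plates of 2 months it stood at 1741, 1739 and 2743 CPM. On those of 24 months it stood at 0, 0 and 275.5 CPM. The plates of 2 months were all above the others, and the value on plate 12 came from a single cell that held all 3108 reads. Its neighbour Hspa1b (chr17:34956436-34959238), the second inducible HSP70 gene, stood at 0.0663 CPM at postnatal day 3, at 3.44, 10.8 and 4.47 CPM on the plates of 2 months, and at 0, 0 and 0.0886 CPM on those of 24 months. It was high and low on the same plates as Hspa1a. Its level is uncertain, since 58.8% of the 50-base windows of Hspa1a transcripts also stand in Hspa1b, and 81.8% of the values of Hspa1b above 0 were fractions, as the estimation of counts gives to shared reads. With both genes summed, the calls below were the same.

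Dnajb1 (chr8:83608193-83612653), the J protein that works with inducible HSP70, stood at 94.9 CPM at postnatal day 3. On the plates of 2 months it stood at 2025, 1237 and 1249 CPM. It had 0 reads on all 3 plates of 24 months, where 3 reads per plate would give 0.229 CPM. All of its values were whole numbers and 0.412% of its windows stood in another gene, so few shared reads can enter its level. Bag3 (chr7:128523616-128546981), an HSP70 nucleotide exchange factor that routes clients to autophagy, stood at 68.2 CPM at postnatal day 3, at 784, 127.2 and 189.2 CPM on the plates of 2 months and at 0, 0 and 1.06 CPM on those of 24 months. Plate 1 stood above the other plates of 2 months in both co-chaperones, more so in Bag3. Hsph1 (chr5:149614287-149636376), the HSP110 exchange factor, stood at 37.97 CPM at postnatal day 3 and at 30.4, 60.3 and 91.8 CPM on the plates of 2 months, and had 0 reads on those of 24 months. Postnatal day 3 lay within the range of 2 months for Hsph1, unlike for the other co-chaperones.

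Hspb1 (chr5:135887919-135889563), a small heat shock protein that holds unfolded clients without ATP, stood at 0.398 CPM at postnatal day 3, at 0, 9.64 and 20.2 CPM on the plates of 2 months and at 0 on those of 24 months, and was found in 9 cells of 2 months and 1 of postnatal day 3. It was the scarcest member by cells. Hsp90aa1 (chr12:110690605-110702728), the stress-inducible cytosolic HSP90, stood at 112.3 CPM at postnatal day 3. It stood at 377, 304 and 350 CPM on the plates of 2 months and at 283.6, 193.8 and 0 CPM on those of 24 months. Plate 2 of 24 months lay just under the lowest plate of 2 months, and its reads at 24 months came from 4 of 15 cells, with 5957 of 8055 reads in a single cell.

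Hspa8 (chr9:40800984-40810087), the constitutive HSP70 that also uncoats clathrin vesicles, stood at 1647 CPM at postnatal day 3. On the plates of 2 months it stood at 2158, 2602 and 2464 CPM, and on those of 24 months at 762, 869 and 2688 CPM. The plates of 24 months overlapped both other ages, while postnatal day 3 lay below every plate of 2 months. Hsp90ab1 (chr17:45567775-45573271), the constitutive cytosolic HSP90, stood at 1238 CPM at postnatal day 3, at 1363, 1095 and 1154 CPM on the plates of 2 months and at 1248, 44.9 and 1521 CPM on those of 24 months, with plate 5 alone far below the rest. Hspd1 (chr1:55077835-55088243), the mitochondrial chaperonin HSP60, stood at 111.6 CPM at postnatal day 3, at 85.3, 92.4 and 143.5 CPM on the plates of 2 months and at 0.142, 24.1 and 0 CPM on those of 24 months. It was the constitutive member whose plates of 24 months lay below all others, and all but 3 of its reads there came from a single cell.

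**Figure D1:**
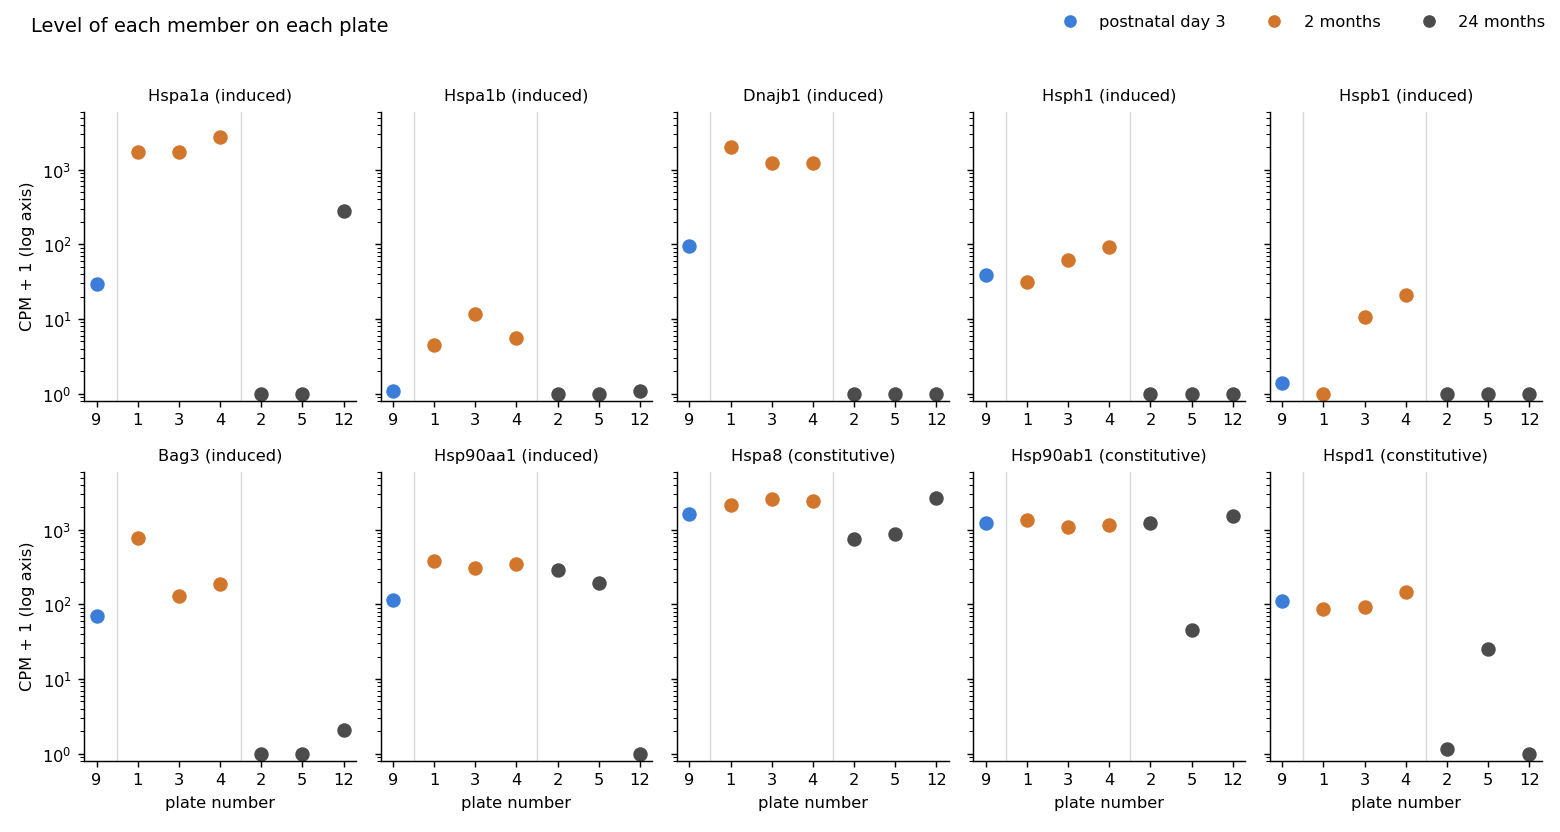
Level of each member on each plate, as CPM + 1 on a log axis, with plates in the order of age (plate 9 of postnatal day 3, plates 1, 3 and 4 of 2 months, plates 2, 5 and 12 of 24 months); each point is the summed reads of a plate's passing cells. Hspa1a and Dnajb1 stand above 1000 CPM on every plate of 2 months and on no other plate, whereas the plates of 2 and 24 months overlap for Hspa8 and Hsp90ab1.

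Levels were compared between genes per kilobase of exon in the GENCODE M21 annotation. At 2 months the order was Hspa1a with 699 CPM per kb, Hspa8 with 560, Dnajb1 with 469, Hsp90ab1 with 402, Bag3 with 143.2, Hsp90aa1 with 87.4, Hspd1 with 40.5, Hspb1 with 9.66, Hsph1 with 8.37 and Hspa1b with 2.23. Across the plates Hspa1a ranged from 586 to 925 CPM per kb, Hspa8 from 502 to 605, Dnajb1 from 386 to 632 and Hsp90ab1 from 365 to 455. Each neighbouring pair in this order overlapped, while Hsp90ab1 lay below Hspa1a and Hspa8 on every plate. Hsp90aa1 and Hspd1 did not overlap each other, with 77.3 CPM per kb as the lowest plate of Hsp90aa1 and 54.3 as the highest of Hspd1. At postnatal day 3 Hsp90ab1 led with 413 CPM per kb and Hspa8 followed with 383, then Hspd1 with 42.3, Dnajb1 with 29.6 and, lower down, Hspa1a with 9.65. Hspa1a was thus among the 4 highest members per length at 2 months but not at postnatal day 3, and Dnajb1 was among them at both ages.

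Summed over the 7 induced members, the level was 342 CPM at postnatal day 3, 4366 ± 776 at 2 months (SD, n = 3 plates) and 251.3 ± 49.97 at 24 months (SD, n = 3 plates). The 3 constitutive members summed to 2997, 3719 ± 98.2 and 2385 ± 1668 CPM. The log2 ratio of the induced to the constitutive sum, with 1 CPM added to each, was -3.13 at postnatal day 3. It was 0.46, -0.12 and 0.31 on plates 1, 3 and 4 of 2 months, and -2.82, -2.27 and -3.92 on plates 2, 5 and 12 of 24 months. The plates of 2 months did not overlap either other age, and postnatal day 3 lay within the range of 24 months. At 24 months the induced sum was made of Hsp90aa1 alone on plates 2 and 5 and almost of Hspa1a alone on plate 12.

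To be called different between ages, a gene needed a mean of 10 CPM or more in the higher age, means 2-fold or more apart, and plates of the ages that did not overlap. All comparisons with 2 months share its 3 plates. At 24 months against 2 months, 6 of the 8 members with enough reads were called lower and 0 higher, where 29.7% of all 8804 genes tested were lower and 1.56% higher. The median log2 fold was -4.03 over the 8 members and -1.56 over all genes tested. All 5 induced members tested were called: Hspa1a was 22.6-fold lower, Dnajb1 at least 6556-fold, Hsph1 at least 265.2-fold, Bag3 1035-fold and Hsp90aa1 2.16-fold. The lower bounds set 24 months at 3 reads per plate and hold for the passing cells alone. They count reads and not cells. With 5 cells on a plate, a single cell can set the level, as for Hspa1a on plate 12 (275.5 CPM). The bounds therefore describe the cells sampled and do not limit the fold between the ages. In cells of at least 500 genes, plates 2, 5 and 12 held Dnajb1 at 29.1, 0 and 30.03 CPM. Hsph1 stood there at 191.5, 0 and 6.02 CPM. Of the constitutive members Hspd1 was called, 13.3-fold lower, and Hspa8 (log2 fold -0.74) and Hsp90ab1 (-0.36) were not. Hspa1b and Hspb1 stayed under a mean of 10 CPM at both ages and were not tested. The mean of Hspb1 was at least 43.4-fold lower at 24 months by the same bound. Plate 1 of 2 months was also at 0 for Hspb1, so its plates overlapped.

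The call for Hsp90aa1 was lost when the per-cell CPM were averaged in place of summing reads, and without plate 12 it was lost as well while Hspa8 was called lower. In Cnmd-negative cells alone (49 cells of 2 months and 15 of 24 months) 3 of the 8 members were called lower, namely Dnajb1, Hsph1 and Bag3, where 10.8% of all genes tested were lower and 1.78% higher, while Hspa1a stood at a mean of 1482 CPM at 2 months and 91.8 CPM at 24 months with plates that overlapped.

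At postnatal day 3 against 2 months, 4 of the 8 members tested were called lower and 0 higher, where 10.1% of all 9656 genes tested were lower and 28.1% higher. The called members were all induced: Hspa1a was 72.4-fold lower, Dnajb1 15.8-fold, Bag3 5.38-fold and Hsp90aa1 3.06-fold. Hsph1, with a log2 fold of -0.67, and the constitutive members Hspa8 (-0.55), Hsp90ab1 (0.04) and Hspd1 (0.06) were not called. The median log2 fold was -1.14 over the 8 members, -2.41 over the 5 induced members tested and 0.04 over the 3 constitutive members. It was 0.23 over all genes tested, so the induced members were lower where the median gene was not. Without plate 1 of 2 months, Hsph1 and Hspb1 were called lower as well. In Cnmd-negative cells the calls were Dnajb1, Hsph1 and Bag3 lower and Hspd1 higher, where 5.7% of all genes tested were lower and 37.2% higher. In Cnmd-positive cells (42 of postnatal day 3, and 7, 49 and 49 on plates 1, 3 and 4) Hspa1a, Dnajb1, Bag3 and Hsp90aa1 were called lower, where 9.73% of all genes tested were lower and 28.8% higher.

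At 24 months against postnatal day 3, 4 of the 8 members were called lower (Dnajb1 at least 414-fold, Hsph1 at least 165.5-fold, Bag3 192.3-fold and Hspd1 13.8-fold) and 0 higher, where 53.7% of all 9062 genes tested were lower and 2.62% higher. A share of 4 of 8 is close to this background, and the lower bounds hold for the passing cells alone. Within batch 3, which holds both ages, the same 4 members were called lower, against 61.9% lower and 5.58% higher of 8917 genes tested. The ratio of induced to constitutive members did not separate these ages: it was 0.12 higher on the log2 scale at 24 months over all plates and 0.25 lower within batch 3. Without plate 12, 7 members were called, with Hspa1a and Hspa8 lower in addition and Hsp90aa1 higher, where 63% of all genes tested were lower and 5.48% higher. The same members were called without it within batch 3, where 71.7% were lower and 18.1% higher.

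The share of cells with a read of each member was taken after thinning every cell to 50000 reads at random, so that depth did not set it; intervals are exact binomial 95% intervals and cover counting error only. Hspa1a was found in 69 cells of 2 months (44.8%, interval 36.8% to 53.02%), in 3 of 68 of postnatal day 3 (4.41%, 0.919% to 12.4%) and in 1 of 15 of 24 months (6.67%, 0.169% to 31.9%). On plates 1, 3 and 4 of 2 months it was found in 6 of 15, 29 of 70 and 34 of 69 cells, so the plates were alike. Dnajb1 was found in 61 cells of 2 months (39.6%), 13 of postnatal day 3 (19.1%, 10.6% to 30.5%) and 0 of 24 months. For 0 of 15 cells the interval reaches up to 21.8%, which lies within that of postnatal day 3. Bag3 was found in 37, 11 and 0 cells (24.03%, 16.2% and 0%), and Hsph1 in 20, 7 and 0 (12.99%, 10.3% and 0%). For these exchange factors the same limit of 21.8% reaches into or past the intervals of the other ages.

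Hspb1 was found in 7 cells of 2 months and in no other cell, and Hspa1b in 25 cells of 2 months and in no other cell. Hsp90aa1 was found in 53.9% of cells at 2 months, 45.6% at postnatal day 3 and 13.3% at 24 months. Hspa8 was the most widely found member, in 86.4% of cells at 2 months, 95.6% at postnatal day 3 and 66.7% at 24 months. Hsp90ab1 was found in 69.5%, 83.8% and 60% of cells and Hspd1 in 23.4%, 36.8% and 6.67%. The shares of the 3 constitutive members were therefore higher at postnatal day 3 than at 2 months, opposite to all 7 induced members. The intervals of these ages overlapped for all 3 constitutive members and for Hsph1, Hspb1, Bag3 and Hsp90aa1, and did not overlap for Hspa1a, Hspa1b and Dnajb1.

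**Figure D2:**
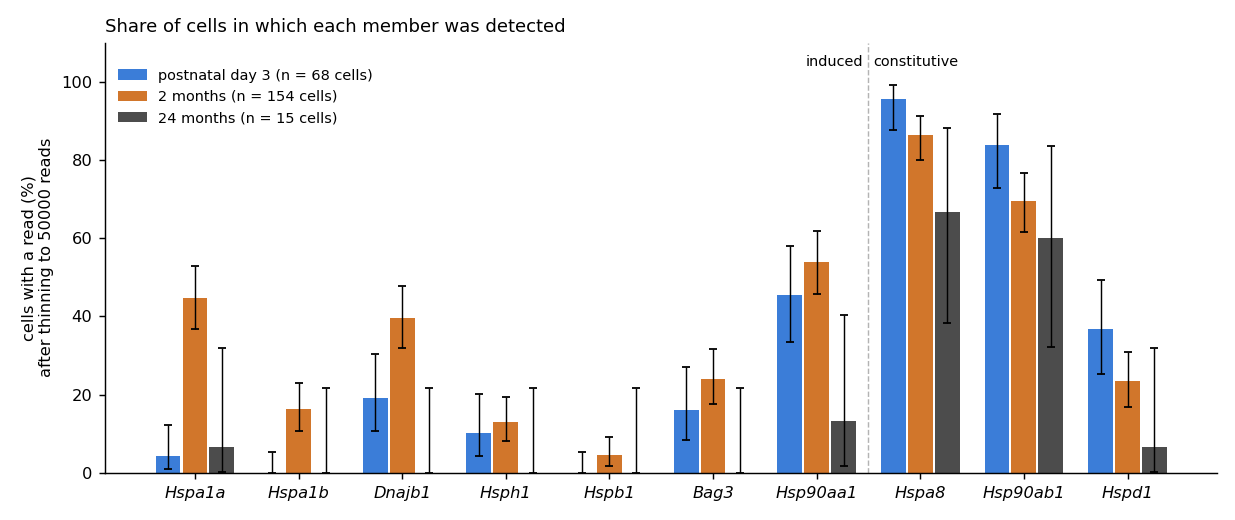
Share of passing cells with at least 1 read of each member after thinning to 50000 reads per cell, for postnatal day 3 (68 cells), 2 months (15, 70 and 69 cells on its plates) and 24 months (15 cells); bars are percentages and whiskers exact binomial 95% intervals. Hspa1a and Dnajb1 stand higher at 2 months than at postnatal day 3 (44.8% against 4.41% and 39.6% against 19.1%), and the whiskers of 24 months are wide in every member.

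Within 2 months the induced reads were concentrated in part of the cells. Of 50000 reads per cell, the induced members took a median of 67.5, with quartiles of 5.75 and 265.5 and a highest value of 2519, and 29 cells held none. The constitutive members took a median of 150 reads, with quartiles of 72 and 271.8, and 12 cells held none. Cells that together gave 50% of the induced reads numbered 17 (11.04%), against 31 (20.1%) for the constitutive reads. The induced reads exceeded the constitutive reads in 58 cells of 2 months (37.7%), in 1 cell of postnatal day 3 and in no cell of 24 months. At least 3 induced members were found together in 50 cells of 2 months (32.5%, exact 95% interval 25.2% to 40.5%), in 3 of 68 of postnatal day 3 and in 0 of 15 of 24 months, and the highest number in a cell was 6.

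Hspa1a and Dnajb1 were found together in 36 cells of 2 months, Hspa1a without Dnajb1 in 33, Dnajb1 without Hspa1a in 25 and neither in 60. At postnatal day 3 they were found together in 2 cells, and Dnajb1 without Hspa1a in 11. Cells with Hspa1a differed in quality from those without it in opposite directions on plates 3 and 4 of 2 months. Their median number of genes was 1758 against 1789 without it on plate 3 and 1818 against 1666 on plate 4. Median reads were 675980 against 895932 and 817840 against 562563. Median mitochondrial shares were 0.916% against 0.805% and 0.959% against 1.11%, and median spike-in shares 7.38% against 6.96% and 7.77% against 10.7%. On plate 1 cells with Hspa1a had more reads, a median of 1484486 against 117182.

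**Figure D3:**
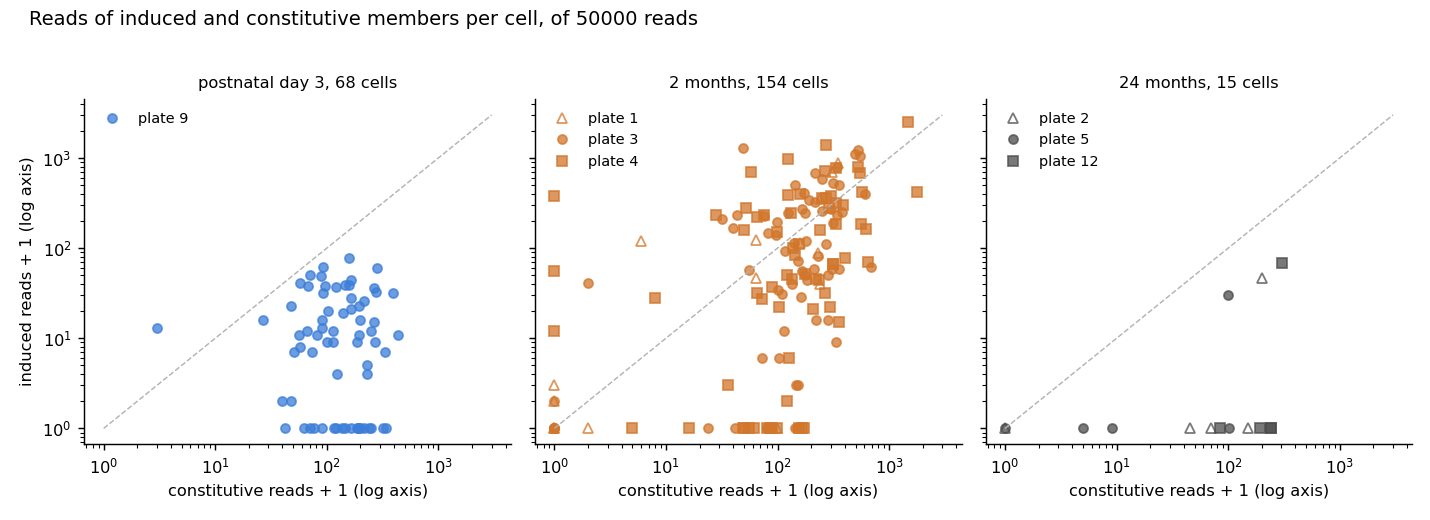
Reads of the induced members against reads of the constitutive members in each cell, both plus 1 on log axes and out of 50000 reads per cell, in 1 panel per age; each symbol is a cell, its shape gives the plate, and the dashed line marks equal reads. At 2 months 58 cells lie above the line, at postnatal day 3 a single cell and at 24 months none.

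Cartilage cells were a large part of the sorted cells at the younger ages, so the members were compared between cells with and without a thinned read of Cnmd, the cartilage glycoprotein chondromodulin. Hspa1a was found in 6 of 7 Cnmd-positive and 0 of 8 Cnmd-negative cells on plate 1. On plate 3 it was found in 20 of 49 and 9 of 21, and on plate 4 in 28 of 49 and 6 of 20. Dnajb1 was found in 4 of 7 against 2 of 8, 21 of 49 against 4 of 21 and 25 of 49 against 5 of 20. Levels here are CPM of the thinned reads, so each cell of a plate counts alike. The summed induced level was higher in Cnmd-positive cells by 3.58, 0.06 and 1.03 on the log2 scale on plates 1, 3 and 4. At postnatal day 3 it was higher by 0.50. The constitutive sum was higher too, at 3869 against 977.5 CPM on plate 1 and 5443 against 2761 on plate 4. It was 3268 against 2692 CPM at postnatal day 3 and 3751 against 3729 on plate 3. Plate 3 thus showed next to no difference in the sums, while single members differed there in opposite directions. In Cnmd-positive against Cnmd-negative cells of plate 3, Dnajb1 stood at 1902 against 635 CPM and Bag3 at 175.1 against 64.8. Hspa1a stood at 1636 against 2596 CPM and Hsp90aa1 at 357 against 626. Cnmd-positive cells also had more genes on all 3 plates of 2 months, with medians of 1703 against 1458.5 on plate 1, 1910 against 1379 on plate 3 and 1906 against 1402.5 on plate 4, and the part of this in the levels was not tested. In thinned reads, Cnmd-negative cells of 2 months still held the induced members at 535, 3970 and 2631 CPM on plates 1, 3 and 4. These values lay above the 250 CPM of the Cnmd-negative cells of postnatal day 3.

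Other genes of the chaperone network were read by the same rule, from lists that hold no member. Hsf1, the factor that binds heat shock elements, stood at 43.9 CPM at postnatal day 3, at 78.8, 9.98 and 127.5 CPM on the plates of 2 months and at 0.0949, 275.7 and 521 CPM on those of 24 months, with plates that overlapped and reads in 5 of the 15 cells of 24 months. Of 15 other heat shock targets tested at 24 against 2 months, 5 were called lower and 0 higher, a share close to the 29.7% of all genes. They included the small heat shock protein Cryab (78.3 CPM at 2 months, 0 reads at 24 months), the HSP70 relative Hspa2 (74.1 CPM, 0 reads) and the HSP60 partner Hspe1 (32.7 and 0.746 CPM). Of 11 other co-chaperones 3 were called lower: Dnaja2, a J protein, at 83.3 CPM and 0 reads, the HSP90 cochaperone Fkbp5 at 52.5 CPM and 0 reads, and the myosin chaperone Unc45a at 37.1 and 0.118 CPM.

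Of 10 chaperones of the endoplasmic reticulum and mitochondria, 1 was called lower at 24 months, Dnajb9 (102.4 CPM and 0 reads), and 1 higher, the lectin chaperone calnexin, Canx (602 CPM at 2 months and 1586 at 24 months). Of 8 subunits of the cytosolic chaperonin TRiC, 2 were lower, Cct3 and Tcp1, and of 4 proteasome subunits none met the rule, with a median log2 fold of 0.21. The median log2 fold at 24 against 2 months was -1.01 for the other heat shock targets, -2.10 for the co-chaperones and -5.95 for the 5 induced members tested, beside -1.56 for all genes. At postnatal day 3 against 2 months the other heat shock targets were mixed: of 16 tested, 2 were lower (among them Hspa4 at 29.95 against 108.03 CPM) and 4 higher, led by the heme oxygenase Hmox1 (32.4 against 1.69 CPM) and the small heat shock protein Hspb8 (22.5 against 5.45 CPM). These 4 of 16 lie near the 28.1% of all genes that were higher in this comparison. In the same comparison 3 of 8 TRiC subunits were higher, also near that share, Cct8 (433 against 87.3 CPM), Cct5 (526 against 142.3) and Cct3 (179.7 against 64.6).

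Immediate early genes, which are known to be transcribed within minutes of many stimuli, tissue digestion among them, moved with the induced members across the ages. Fos, Jun, Junb, Egr1, Atf3 and Ier2 summed to 2839 CPM at postnatal day 3, to 14700 to 18820 CPM on the plates of 2 months and to 192.5 to 4816 CPM on those of 24 months. All 6 were called lower at postnatal day 3 than at 2 months, and 5 of 6 at 24 months, beside 10.1% and 29.7% of all genes tested. The exception was Atf3, which stood at 1855 CPM on plate 2 and at 0 on plates 5 and 12. The part of digestion or sorting in the heat shock levels was not tested.

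Across the cells of a plate the induced members varied together only weakly. Spearman's rho over the 21 pairs of induced members had a median of 0.14 on plate 3 (70 cells) and 0.15 on plate 4 (69 cells), against 0.60 and 0.57 over the 15 pairs of immediate early genes. The highest pair of members was Hspa1a with Hspa1b (0.52 and 0.55), which share reads. Next to it stood Hsp90aa1 with Hspa8 (0.46 and 0.51), and Dnajb1 correlated with Junb (0.52 and 0.44) more than with Hspa1a (0.27 and 0.20). Bag3 with Hsp90aa1 was at -0.03 and -0.08. These values describe cells that share a library plate, in sparse counts, and carry no test.

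**Figure D4:**
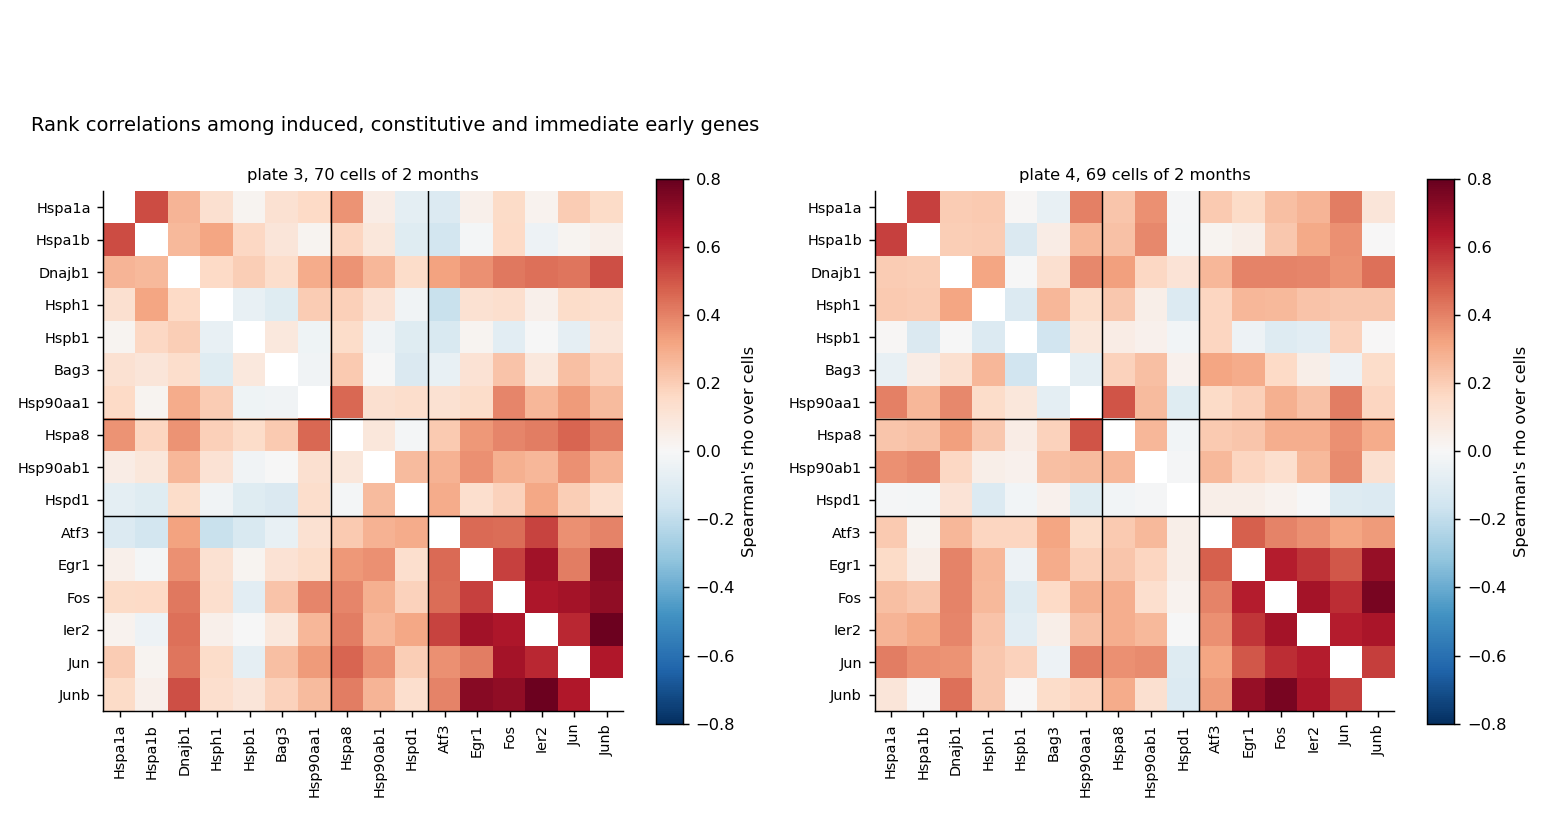
Spearman's rho between the thinned reads of each pair of genes over the cells of plate 3 (70 cells) and plate 4 (69 cells), both of 2 months, on a colour scale from -0.8 to 0.8; black lines separate the induced members, the constitutive members and the immediate early genes. The block of immediate early genes is the most strongly correlated, with medians of 0.60 and 0.57, and among the members Hspa1a with Hspa1b and Hsp90aa1 with Hspa8 stand out.

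Among 1384 genes found in at least 20% of cells of plates 3, 4 and 9, those with the highest mean rho with the number of induced reads per cell were Hsp90aa1 (0.48), which is part of that sum, Jun (0.40), Fos (0.37), the member Hspa8 (0.37), the table's 2 Jund rows (0.34 and 0.32), the nuclear long noncoding RNA Neat1 (0.33), Gm26825 (0.32), Gm15459 (0.31) and Junb (0.30). The median over all genes compared was 0.03. On plate 9 of postnatal day 3 the values were 0.44 for Hsp90aa1, 0.19 for Jun, 0.16 for Fos and 0.08 for Hspa8. These lay below their values on plates 3 and 4, whereas the Jund row with a mean of 0.32 stood at 0.29 on plate 9 and 0.24 on plate 4. Gm26825 and Gm15459 overlap on opposite strands of chromosome 5, and 34.05% and 34.6% of the 50-base windows of Hspa8 transcripts also stand in them, so reads of these 3 genes cannot be assigned with certainty.

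The wells of 24 months that did not pass, all but 5 on each plate, held further reads of the induced members. Among these were Dnajb1, Hsph1 and Hspb1, which had no reads in the passing cells. Hspa1a had 68692 reads in 5 of these wells, 50302 of them in a well of plate 2 with 703 genes, where it made up 19418 CPM. Dnajb1 had 9253 reads in 4 wells, Hsph1 10209 in 4 and Bag3 1074 in 1. When cells needed 500 genes in place of 1000, plate 2 held 21 cells, and its log2 ratio of induced to constitutive members was 0.18, within the range of the plates of 2 months. On plates 5 and 12, with 18 and 26 cells, it was -3.65 and -3.22, below that range. With 65 cells of 24 months in all, Hspa1a, Dnajb1, Bag3, Hsp90aa1 and Hspd1 were called lower than at 2 months, while Hsph1 was not, at 191.5 CPM on plate 2, 0 on plate 5 and 6.02 on plate 12. Against postnatal day 3 within batch 3, Hspa1a and Hspa1b were then called higher at 24 months and Hsph1 was no longer called, where 44.5% of all genes tested were lower and 12.3% higher. The call for Hspa1b, which shares reads with Hspa1a, rested on plate 2, at 101.2 CPM. Plate 12 held Hspa1b at 0.121 CPM, against 0.0657 CPM at postnatal day 3. With all wells included, Hspa1a and Hspa1b were again called higher, neither Dnajb1 nor Hsph1 was called, and the ratio was higher at 24 months on both plates of the batch, beside 42.7% of genes lower and 14% higher. Hspa1b then stood at 0.107 CPM on plate 12 against 0.0655 CPM at postnatal day 3. Compared with 2 months, a low ratio of induced to constitutive members at 24 months therefore held for the passing cells of all 3 plates. Among shallower wells it held for plates 5 and 12 but not for plate 2. The summed induced level of plate 2 from 500 genes was 1868 CPM, below the 4898, 3381 and 4619 CPM of plates 1, 3 and 4. Its constitutive sum, 1652 CPM, was also below theirs, at 3380, 3736 and 3714 CPM.

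**Figure D5:**
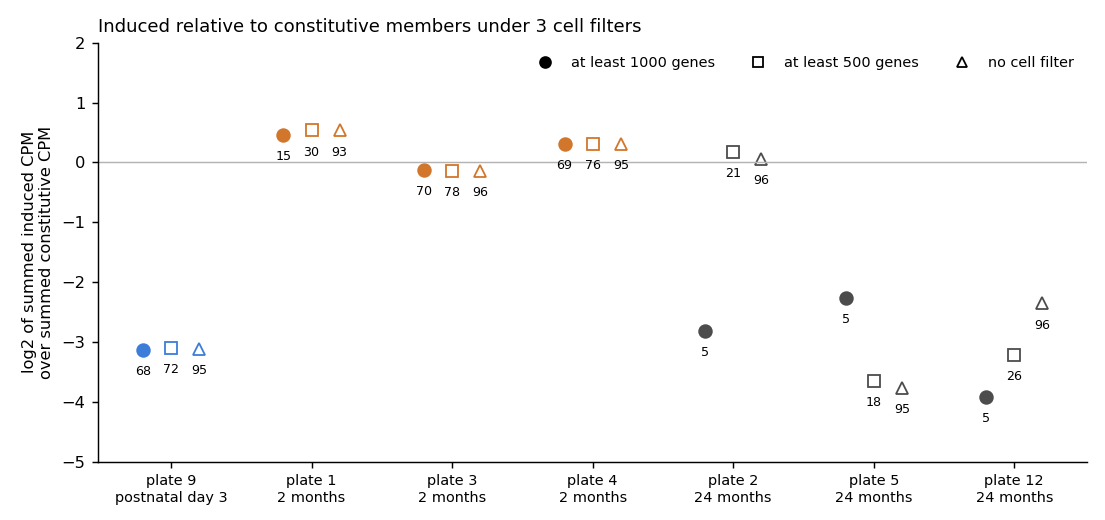
Log2 of the summed induced over the summed constitutive CPM on each plate, with 1 CPM added to each sum, for cells with at least 1000 genes, cells with at least 500 genes and all wells with reads; the number under each point is its number of cells. The values of postnatal day 3 and 2 months hardly move, whereas plate 2 of 24 months goes from -2.82 with 5 cells to 0.18 with 21.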

How the data were processed

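Single cells on 7 plates were profiled by SmartSeq2. Per the submitters' processing notes, bcl2fastq 2.18, STAR 2.4 and RSEM 1.2.21 were used with GRCm38.p6; the annotation release is not given in the sources used here. The deposited values are RSEM expected counts per gene, made by the authors, and were rounded to whole numbers first, since 15.1% of those above 0 were fractions. The table's 92 spike-in rows stayed out of all totals. Plate, well, age and index sequences in the column names gave each column its sample; 1 column was not used because it matched none. No pair of index sequences occurred on more than 1 plate.

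The members, lists and rules were chosen with earlier results of these data known. CPM come from the summed reads of a plate's passing cells over all of their gene reads, and 1 CPM was added before taking logs. An age is the mean of its plates. Without molecular identifiers reads are not independent molecules, so intervals and limits cover counting error only. Total reads per plate ranged from 10719365 to 75456569. The rule for calling genes was tested on simulated data before use.

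The members are always named; of the other lists, at most the 4 called genes with the largest folds, of which 1 is not reported here; of the genes most like the induced members, the first 10; and the immediate early genes. Alternatives were TMM factors from edgeR 4.0.16 in R 4.3.3, averaging per-cell CPM, other cell filters, pseudocounts and minimum levels, each plate left out, unrounded values, Hspa1a and Hspa1b summed, and Hsp90aa1 placed with the constitutive members. Comparisons within Cnmd-negative or Cnmd-positive cells were added after seeing the data. Gene positions and exon lengths come from GENCODE M21 on GRCm38 and promoter windows from RefSeq on GRCm38.p6. Figures were drawn with matplotlib 3.10.9 and values computed with scipy 1.17.1, pandas 2.3.3 and numpy 2.4.6 under Python 3.11.15.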

Additional observations from a re-analysis of the deposited data

Results flagged for a closer look

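In the wells of 24 months that did not pass, which the comparisons leave out, each induced member stood above its level in the passing cells of the same age and above 3 reads. The mean CPM over the 3 plates in these wells was 599.8 for Hspa1a against 91.8 in passing cells, 45.7 for Hspa1b against 0.0295, 111.7 for Dnajb1 against 0, and 88.9 for Hsph1 against 0. It was 8.499 for Hspb1 against 0, 9.27 for Bag3 against 0.355 and 185.6 for Hsp90aa1 against 159.1. The reads sat in few wells: 5 for Hspa1a, 3 for Hspa1b, 4 for Dnajb1, 4 for Hsph1, 1 each for Hspb1 and Bag3, and 8 for Hsp90aa1. For Dnajb1, a well with 21 genes and 4652 gene reads gave 3476 of the 9253 reads.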

How the results depend on the processing

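No paired analysis was possible because no result comes from a test. At 24 against 2 months the induced to constitutive ratio was -3.22 on the log2 scale and stayed below 0 under all alternatives tried, from -3.59 to -2.76 with plates left out, with 6 to 7 members called. It was -2.25 with no cell filter and -2.47 from 500 genes, where plates of the ages overlapped, -9.71 with at least 2000 genes and 200000 reads (1 cell of 24 months) and -8.38 with Hsp90aa1 among the constitutive members. In Cnmd-negative cells 3 members were called.

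At postnatal day 3 against 2 months it was -3.34, from -3.51 to -3.22 with plates left out (4 to 6 members called), -3.02 with the stricter filter, -4.33 in cells of 1000 to 1700 genes (7 members called) and -3.72 with Hsp90aa1 moved.

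At 24 months against postnatal day 3 it turned with the choices. With no cell filter it was 1.09, with the stricter filter -6.69 (7 members), in cells of 1000 to 1700 genes 1.05 (1 member) and with Hsp90aa1 moved -4.66; with plates left out it was -0.25 to 0.58 (4 to 7 members). Within batch 3 it was 1.96 with no filter, 1.58 from 500 genes, -6.69 with the stricter filter (7 members), 0.70 in cells of 1000 to 1700 genes (2 members) and -3.79 with Hsp90aa1 moved, and with plates left out -0.80 to 0.31 (6 to 7 members). Member folds that changed sign between these ages were Hsph1 with no filter (0.61, and 1.18 within batch 3) and from 500 genes (0.79 and 1.37), Dnajb1 with no filter within batch 3 (0.30), and Bag3 in cells of 1000 to 1700 genes (0.44 and 0.62). The cause was not tested. With 15 passing cells at 24 months, a member found in none may be present in up to 21.8% of cells.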
